A study of Bursaphelenchus xylophilus with 12 samples.

Results

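In adult pine wood nematodes (Bursaphelenchus xylophilus), 112 of 18036 listed genes gained RNA between 12 h and 24 h of immersion with emamectin benzoate and without it, but stood lower with emamectin benzoate at 24 h. They were picked by their values. The scale was log2(FPKM + 1), where FPKM counts fragments for each kilobase of a gene and corrects for library size. A gene needed an ID that starts with BXY, a mean of 5 to under 800 FPKM over all 12 libraries, and a spread between the 12 h replicates under 0.6 log2 units. It also needed a 24 h mean at least 1 log2 unit above the 12 h mean in the control worms and at least 0.5 above it in the treated worms. The last condition was a treated mean at 24 h at least 0.6 log2 units below the control mean at 24 h. Of 17704 BXY genes, 10333 were in the FPKM range, 9310 of these were even enough at 12 h, 865 of these met the condition on control worms, and 776 of these also met the one on treated worms. The 112 are those of the 776 with the required difference at 24 h. These conditions describe the members and support nothing; where a test that covers all genes is quoted for the same contrasts, nothing is read from it about the members.

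The 12 libraries form 4 groups of 3, each library from 200 adults of strain NB-6 reared on the fungus Botrytis cinerea. EB24 and EB12 worms were immersed in 0.1 mg/L emamectin benzoate (EB) for 24 h and 12 h at 25 °C. EC24 and EC12 are the matching controls. The labels describe controls with an equal concentration of the adjuvants octylphenol polyoxyethylene-10 and n-butyl alcohol but call them ON, so EC was taken as the adjuvant control by elimination. There was no group without adjuvant and none taken at the start, so what the adjuvants did cannot be told apart from what time did. Whether the replicates are separate cultures is not stated in the labels, and the spread between them may be technical. Whole adults were sequenced, and the labels give no sex. In such bulk samples fewer cells of a type and less RNA per cell cannot be told apart.

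Emamectin benzoate is an avermectin, a class of compounds that open glutamate-gated chloride channels of nerve and muscle cells in invertebrates and thereby paralyse nematodes. It is injected into pine trunks against pine wilt, the disease that this nematode causes. The table gives genes by ID with no names or descriptions, so the functions and the sequences of the members are not analysed here. Each ID below is 1 gene of the BXY annotation.

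The library sums of FPKM were 916720 to 929471 in EB24, 932367 to 944595 in EC24, 861704 to 870950 in EB12 and 824088 to 845626 in EC12. Read totals are not given. The steps between low values put the depth of the other libraries at 0.773 to 1.23 times that of EC24 replicate 1, but other readings of the steps, 1.5 to 2 times apart, were also possible, so no interval from read counts is given. No pair of libraries was identical. The titles of the 12 h libraries hold a group number (group3 in EB12, group2 in EC12), which is missing from the 24 h titles. The labels do not explain it and name no batch. A batch that followed the times cannot be told apart from time. A batch that followed this number cannot be told apart from the agent at 12 h.

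At 24 h the members together took up 1.01%, 1.02% and 0.987% of all FPKM in the EB24 libraries, against 1.91%, 1.82% and 1.81% in the EC24 libraries. At 12 h they took up 0.536%, 0.577% and 0.591% in EB12 and 0.724%, 0.555% and 0.628% in EC12. The EB24 share therefore lay between the 12 h shares and the EC24 share in every library, while EB12 and EC12 overlapped. The mean share was 1.01 ± 0.018% in EB24 and 1.85 ± 0.052% in EC24, and 0.568 ± 0.029% in EB12 and 0.635 ± 0.084% in EC12 (SD, n = 3 each). The median member stood at 31.4 ± 0.617 FPKM in EB24, 54.7 ± 1.44 in EC24, 15.3 ± 1.14 in EB12 and 14.2 ± 0.629 in EC12 (mean ± SD of the library medians). These sums and medians come from the values that chose the members and are a description.

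**Figure D1:**
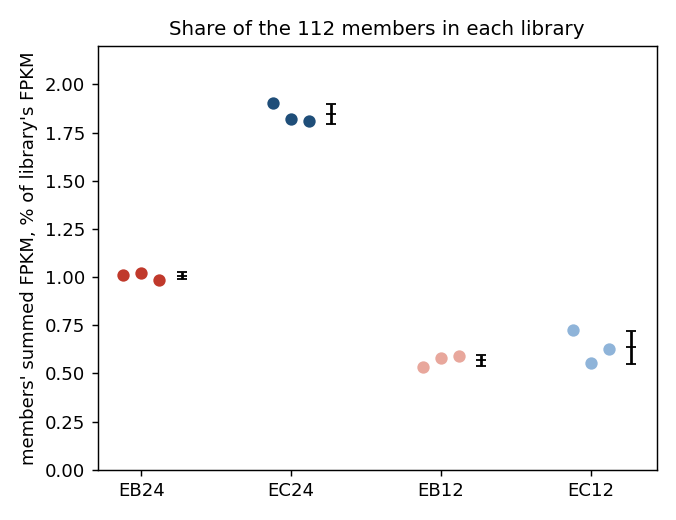
Summed FPKM of the 112 members as a percentage of all FPKM in a library (vertical axis) for the groups EB24, EC24, EB12 and EC12. Each point is 1 library and the black bar is the mean with its SD (n = 3); the EB24 libraries lie at 0.987% to 1.02%, between EC24 at 1.81% to 1.91% and the 12 h libraries at 0.536% to 0.724%.

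The gain over time, meaning the 24 h mean minus the 12 h mean in log2(FPKM + 1), had a median of 0.93 (range 0.51 to 2.61) with EB and of 1.76 (range 1.00 to 3.94) with adjuvant. The medians over the 13768 genes that reached 1 FPKM in 3 or more libraries were 0.15 with EB and 0.04 with adjuvant. All 112 members met that minimum. The difference EB24 minus EC24 had a median of -0.79 (range -2.02 to -0.61) in the members and of 0.14 in all 13768 genes. It was -1 or lower in 25 members, and in 41 it lay no lower than -0.7, close to the threshold. Other scalings shifted all genes, with a median EB24 minus EC24 of 0.06 over all genes when rescaled by the median ratio and of 0.03 under quantile normalization. Relative to the median of all genes, the members' median was -0.93 as deposited, -0.93 with the median ratio and -0.90 under quantile normalization. In the same order the members' gain relative to all genes was 0.78, 0.78 and 0.76 with EB and 1.71, 1.71 and 1.71 with adjuvant.

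**Figure D2:**
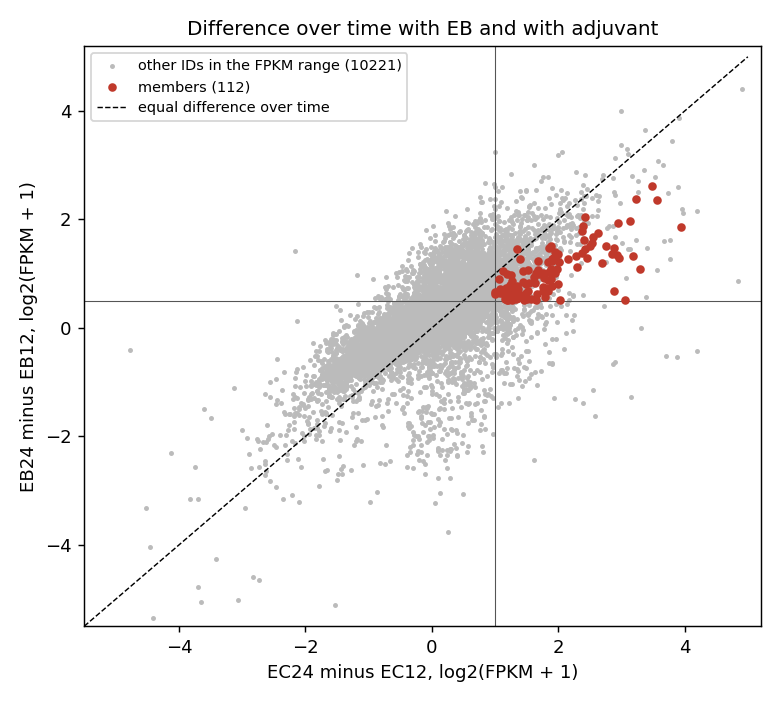
Difference over time with EB (EB24 minus EB12, vertical axis) against that with adjuvant (EC24 minus EC12, horizontal axis), in log2(FPKM + 1), for the 10333 BXY genes in the FPKM range. Red points are the 112 members, grey points the 10221 others, thin lines the thresholds at 1 and 0.5 and the dashed line an equal difference; 111 members lie below the dashed line.

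No EB24 library reached any EC24 library in any of the 112 members, and no EC24 library fell to the level of an EC12 library. The same held for 19.7% of the 13768 genes for EB24 below EC24 and for 29% for EC24 above EC12. All EB24 libraries lay above all EB12 libraries in 102 members, against 37.6% of the 13768 genes. In 89 members every EB24 library lay above every 12 h library of either agent and below every EC24 library, against 4.4% of the 13768 genes. Since the rule used these group means, nothing is read from these counts.

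A linear model over all 12 libraries (limma, Benjamini-Hochberg adjusted p under 0.05) called 82 of the 112 lower in EB24 than in EC24, where it called 4.74% of the 13768 genes. It called all 112 higher in EC24 than in EC12 (24.7% of genes) and 97 higher in EB24 than in EB12 (30.3% of genes). Fitted on the compared groups alone, limma called 112 lower in EB24 than in EC24 (16.9% of genes), 112 higher in EC24 than in EC12 (23.7%) and 89 higher in EB24 than in EB12 (28.7%). The rule fixed these directions, and the counts show only how the thresholds relate to the spread. The 82 became 48 to 49 when any 1 EB24 library was left out and 50 to 52 when any 1 EC24 library was. In the interaction, the agent difference at 24 h minus that at 12 h, limma called 27 members with a negative sign (1.86% of genes), and this too was fixed in large part by the rule. The 27 became 9 to 10 without any 1 EB24 library, 10 to 16 without any 1 EC24 library and 51 without EC12 replicate 1. No share of all genes is given for the fits without 1 library, so nothing about the members is read from these changes.

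BXY_0590900 had the lowest difference at 24 h. It stood at 4.92, 5.09 and 3.20 FPKM in EB24 and at 19.5, 22.8 and 19.8 FPKM in EC24. At 12 h it was close to absent, with 0.38, 1.00 and 0.13 FPKM in EB12 and 0, 0.23 and 1.26 FPKM in EC12. Every EB24 library thus lay above the 12 h libraries and far below EC24, and the 12 h groups overlapped. The gain was 1.87 log2 units with EB and 3.94 with adjuvant, the largest adjuvant gain of the 112, and EB24 minus EC24 was -2.02. The pseudocount of 1 understates these values at such low 12 h levels.

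BXY_1165700 was the more abundant member with a difference of nearly that size (-1.95). It stood at 118, 142 and 140 FPKM in EB24 and at 533, 491 and 532 FPKM in EC24, against 78.0, 34.7 and 87.2 FPKM in EB12 and 55.4, 46.4 and 55.4 FPKM in EC12. The EB24 libraries were clear of the 12 h libraries, whose agents overlapped. Its gain with EB, 1.09 log2 units, was 33.2% of the gain of 3.29 with adjuvant.

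BXY_0833400 stood at 19.9, 18.9 and 18.7 FPKM in EB24 and at 69.2, 63.1 and 60.6 FPKM in EC24, with 4.77, 12.4 and 5.41 FPKM in EB12 and 5.2, 9.23 and 9.02 FPKM in EC12. BXY_0929900 stood at 19.5, 14.5 and 11.4 FPKM in EB24 and at 46.5, 41.6 and 53.2 FPKM in EC24, with 1.97, 3.79 and 1.02 FPKM in EB12 and 2.50, 4.27 and 2.60 FPKM in EC12. In both genes the 12 h groups overlapped and EB24 lay between them and EC24, and EB24 minus EC24 was -1.69 and -1.60. The gains with EB differed more, at 46.2% of the adjuvant gain in BXY_0833400 and 66.4% in BXY_0929900.

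BXY_1410900 and BXY_0262400 were lower with EB at both times. BXY_1410900 stood at 87.5, 88.1 and 95.4 FPKM in EB24 and at 256, 248 and 239 FPKM in EC24, and at 28.1, 29.9 and 21.3 FPKM in EB12 and 36.0, 37.6 and 44.9 FPKM in EC12. BXY_0262400 stood at 38.9, 41.9 and 39.6 FPKM in EB24 and at 95.5, 111 and 110 FPKM in EC24, and at 26.3, 18.03 and 12.9 FPKM in EB12 and 25.9, 24.3 and 34.2 FPKM in EC12. At 12 h the groups of BXY_1410900 did not overlap, while EB12 replicate 1 of BXY_0262400 lay inside the EC12 range.

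**Figure D3:**
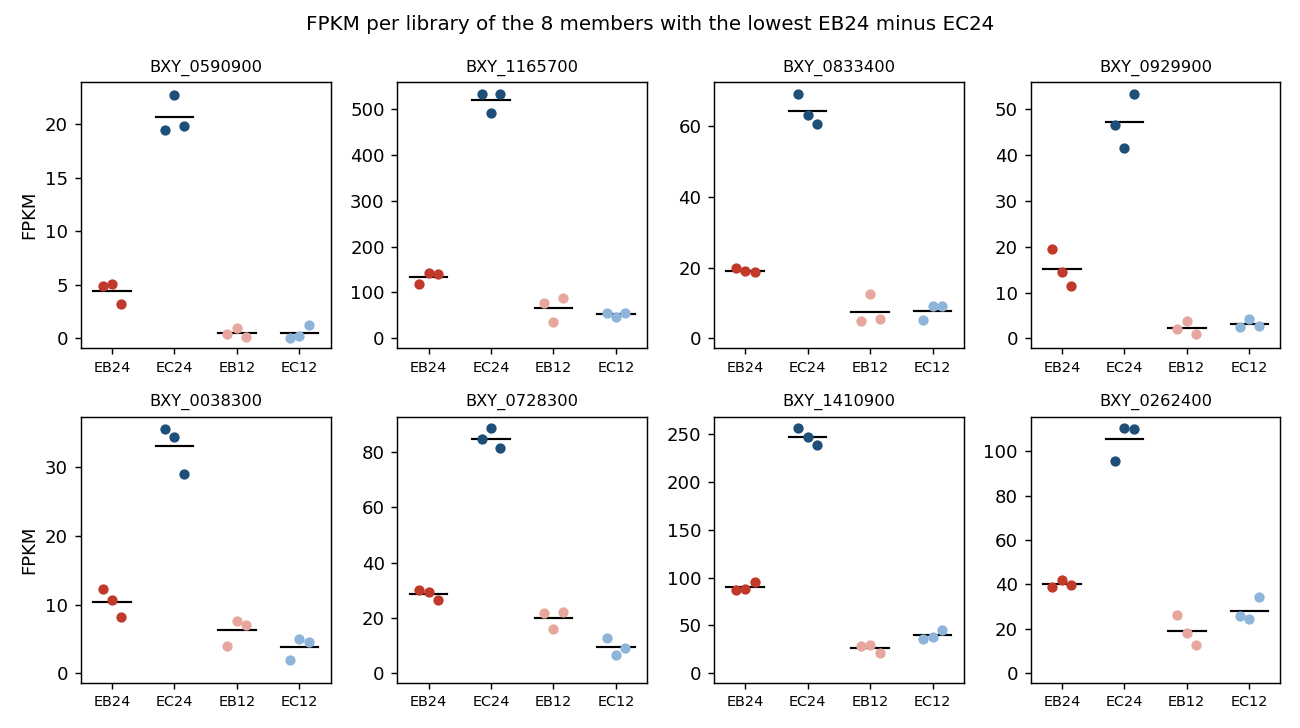
FPKM (vertical axes, linear, scaled per gene) of the 8 members with the lowest EB24 minus EC24 in the groups EB24, EC24, EB12 and EC12. Points are libraries and bars are group means; in all 8 genes the EB24 points lie between the EC24 points and the means of the 12 h groups.

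The share of the adjuvant gain that remained with EB differed widely among the members. It had a median of 56.6%, with quartiles of 44.2% and 65.8%, and ran from 17% to 107%. It was under 50% in 41 members, 50% to under 75% in 59 and 75% or more in 12. In these classes EB24 minus EC24 had medians of -0.91, -0.72 and -0.71 log2 units. EB12 minus EC12 had medians of 0.06, -0.08 and -0.41 and was below 0 in 15 of 41, 37 of 59 and 12 of 12 members. The share and EB12 minus EC12 are built from the same group means, so this order is in part arithmetic.

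BXY_0728300 kept the smallest share, 17%. It stood at 30.0, 29.2 and 26.7 FPKM in EB24 and at 84.7, 88.6 and 81.4 FPKM in EC24. At 12 h it was the other way round, with 21.6, 15.9 and 22.02 FPKM in EB12 and 12.9, 6.69 and 9.26 FPKM in EC12, and no library of EB12 reached down to EC12. The log2 difference was -1.54 at 24 h and 1.00 at 12 h, so the small gain with EB (0.52 log2 units) came with a higher EB12 level as well as a lower EB24 level.

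BXY_0038300 had the same order of groups at lower levels and kept 23.4% of the adjuvant gain. It stood at 12.3, 10.6 and 8.13 FPKM in EB24 and at 35.7, 34.5 and 29.1 FPKM in EC24, with 3.99, 7.64 and 7.07 FPKM in EB12 and 1.93, 5.04 and 4.6 FPKM in EC12. Its 12 h groups overlapped.

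BXY_1055000 kept 25.1%, with replicates close to each other at both times. It stood at 35.9, 33.9 and 32.3 FPKM in EB24 and at 86.1, 80.6 and 84.2 FPKM in EC24, with 26.4, 21.8 and 22.8 FPKM in EB12 and 24.2, 17.6 and 18.2 FPKM in EC12. Its gain with EB, 0.51 log2 units, was also the one nearest to the threshold of 0.5. All EB24 libraries were above all EB12 libraries in it.

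At the other end, BXY_0687600 goes against the description of a blunted gain. It stood at 56.4, 59.4 and 57.0 FPKM in EB24 and at 82.0, 101 and 89.2 FPKM in EC24, and at 25.4, 13.4 and 25.1 FPKM in EB12 and 46.8, 31.0 and 29.3 FPKM in EC12. It was lower with EB at both times with no overlap at either, and its gain was 1.45 log2 units with EB and 1.35 with adjuvant. It was the 1 member of 112 in which the gain with EB was not the smaller one. That order turned round under median ratio scaling and under quantile normalization, where the EB gain minus the adjuvant gain was -0.05 and -0.11 log2 units.

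Next in the share kept, BXY_0771600 (93.4%), BXY_1281800 (91.8%) and BXY_0104200 (84.6%) were also lower with EB by a similar amount at both times. BXY_1281800 stood at 6.21, 8.70 and 9.09 FPKM in EB24 and at 13.0, 13.2 and 13.8 FPKM in EC24, and at 2.83, 3.73 and 1.73 FPKM in EB12 and 3.81, 4.31 and 5.35 FPKM in EC12, with no overlap at either time. BXY_0771600 stood at 51.2, 49.95 and 52.8 FPKM in EB24 and at 97.5, 79.6 and 85.8 FPKM in EC24, and at 17.1, 39.5 and 20.9 FPKM in EB12 and 27.8, 43.4 and 50.4 FPKM in EC12, where EB12 replicate 2 lay inside the EC12 range. In 9 of the 112 members EB12 minus EC12 was at least 50% of EB24 minus EC24 in the same direction, so that a large part of the 24 h difference already stood between the 12 h means.

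EB12 minus EC12 was not a condition of the rule, but the thresholds constrain it, since it equals the 24 h difference plus the adjuvant gain minus the EB gain. It had a median of -0.03 log2 units in the members (range -0.88 to 1.00) and -0.05 in all 13768 genes; with median ratio scaling the members' median was 0.03. As deposited it was below 0 in 64 members and above it in 48. All EB12 libraries lay above all EC12 libraries in 2 members (2.43% of genes) and below them in 10 (7.41% of genes). BXY_0394500 had the lowest difference at 12 h and is 1 of these 10. It stood at 5.03, 4.90 and 4.65 FPKM in EB24 and at 17.03, 10.4 and 15.2 FPKM in EC24, and at 3.48, 1.43 and 3.13 FPKM in EB12 and 7.87, 4.08 and 5.23 FPKM in EC12. It was lower with EB at both times without overlap, and its EB24 mean was below its EC12 mean. In the other 111 members the EB24 mean was above both 12 h means. Of the 2 members with EB12 above EC12, 1 was BXY_0728300 and the other was BXY_0276500, with means of 59.2 FPKM in EB24, 92.3 in EC24, 20.6 in EB12 and 12.9 in EC12.

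Limma called 0 members at 12 h over all 12 libraries, where it called 0.0726% of genes higher and 0.0436% lower, and 0 with the 12 h libraries alone, where it called 0% of genes in either direction. The lowest limma adjusted p among the members was 0.0875 (BXY_0728300) over all libraries and 0.979 in the 12 h libraries alone. At an unadjusted p under 0.05 limma had 19 of 112 members (17%, against 12.2% of all genes) over all libraries and 7 (6.25%, against 4.11%) in the 12 h libraries alone. Without EB12 replicate 2 the fit over the other 11 libraries called 9 members, and without EC12 replicate 1 it called 1. No share of all genes is given for these reduced fits, so nothing about the members is read from either count. The fit over all 12 libraries uses 1 spread per gene for both times. In the members the median spread between replicates was 0.35 log2 units at 12 h and 0.11 at 24 h. The p-values of that fit at 12 h therefore tend to be too small. Neither fit shows that the members were alike in EB12 and EC12.

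**Figure D4:**
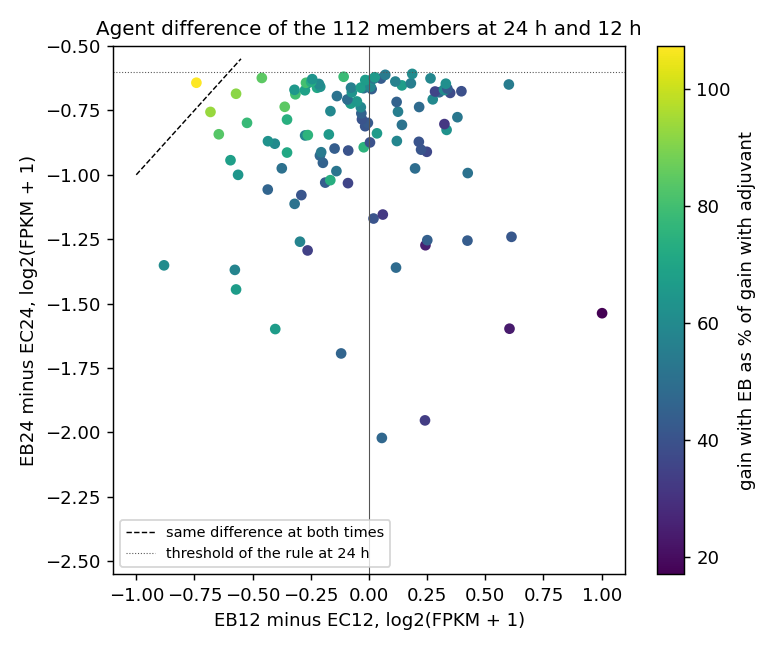
EB24 minus EC24 (vertical axis) against EB12 minus EC12 (horizontal axis) in log2(FPKM + 1) for the 112 members, coloured by the gain with EB as a percentage of the gain with adjuvant. Points spread on both sides of 0 at 12 h (64 below, 48 above) while all lie under the dotted threshold at 24 h; the point above the dashed line of equal differences is BXY_0687600.

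The most abundant members had even 24 h values. BXY_1768100 stood at 759, 775 and 741 FPKM in EB24 and at 1249, 1198 and 1177 FPKM in EC24, with 432, 456 and 567 FPKM in EB12 and 751, 520 and 558 FPKM in EC12. Its control gain, 1.00 log2 units, was just inside the threshold, and EC12 replicate 1 lay within the EB24 range. BXY_0390100 differed by more, with 301, 323 and 309 FPKM in EB24 and 758, 832 and 807 FPKM in EC24, and with 100, 133 and 128 FPKM in EB12 and 84.4, 117 and 135 FPKM in EC12. Its 3 levels were clear of each other, the 12 h groups overlapping, and it kept 48.2% of the adjuvant gain.

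BXY_0035000 stood at 490, 496 and 504 FPKM in EB24 and at 879, 861 and 828 FPKM in EC24, with 343, 274 and 449 FPKM in EB12 and 428, 273 and 384 FPKM in EC12. BXY_0776900 stood at 448, 449 and 464 FPKM in EB24 and at 804, 866 and 897 FPKM in EC24, with 207, 308 and 258 FPKM in EB12 and 354, 254 and 281 FPKM in EC12. In both, the 24 h libraries stood above all 12 h libraries, and the 12 h groups overlapped. Of the other 2 members among the 6 most abundant, BXY_0350200 had means of 376 ± 4.22 FPKM in EB24, 705 ± 25.9 in EC24, 263 ± 73.8 in EB12 and 279 ± 70.6 in EC12. BXY_0043400 had means of 316 ± 18.6 FPKM in EB24, 568 ± 9.50 in EC24, 184 ± 20.7 in EB12 and 235 ± 97.1 in EC12 (SD, n = 3 each).

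Members were found in each class of abundance within the 5 to under 800 FPKM that the rule allowed. They made up 1.13% of the 3540 BXY genes with a mean of 5 to under 20 FPKM (40 members), 0.84% of the 5119 at 20 to under 100 (43 members) and 1.73% of the 1674 at 100 to under 800 (29 members). The median share of the gain that remained with EB was 59.9%, 54.6% and 54.04% in these classes.

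The largest control gains after BXY_0590900 belonged to BXY_0929900 (3.56 log2 units), BXY_1127700 (3.49), BXY_1165700 (3.29), BXY_1560200 (3.23) and BXY_1264900 (3.18). BXY_1127700 was uneven at 24 h as well, with 285, 218 and 162 FPKM in EB24 and 506, 357 and 361 FPKM in EC24, against 41.0, 23.0 and 43.2 FPKM in EB12 and 57.3, 31.4 and 23.7 FPKM in EC12. Its spread at 24 h, 0.35 log2 units, was the largest of the 112, and that at 12 h was 0.56. Between EB24 and EC24, limma over all 12 libraries did not call it (adjusted p 0.0745). Limma fitted on EB24 and EC24 alone did call it (adjusted p 0.00464). BXY_1560200 was even at 24 h, with 11.7, 10.3 and 10.6 FPKM in EB24 and 23.3, 22.7 and 23.0 FPKM in EC24, against 0.92, 1.13 and 1.91 FPKM in EB12 and 0.55, 1.62 and 3.14 FPKM in EC12.

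The spread between replicates at 24 h was not used by the rule. Its median, as the square root of the mean of the EB24 and EC24 variances, was 0.11 log2 units in the members and 0.10 in the 10333 BXY genes in the FPKM range. At 12 h, where the rule capped it, the median was 0.35 in the members and 0.26 in that range. Single 12 h libraries stood apart in some members. BXY_0005900, just inside the cap, stood at 146, 160 and 163 FPKM in EB24 and 266, 266 and 264 FPKM in EC24, but at 75.3, 198 and 72.4 FPKM in EB12 and 88.9, 118 and 111 FPKM in EC12, so that EB12 replicate 2 lay above all EB24 libraries. The other 9 members in which EB24 and EB12 overlapped include BXY_0228400 and BXY_0228200, whose values are given with their neighbours.

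EC12 replicate 1 was the highest of the 3 EC12 libraries in 61 members, and the median member lay 0.15 log2 units above its EC12 mean there, against 0.01 over all 13768 genes. EC24 replicate 1 was the highest of its group in 60 members. There the median member lay 0.04 log2 units above its group mean, against 0.03 over all genes. The share of all genes in which a library was the highest is not given. EC12 replicate 1 lay above the group mean in 69 of 112 members, against 51.3% of the 13768 genes. EC24 replicate 1 did so in 71 members, against 60.5% of the genes. In the other 10 libraries the median member lay between -0.09 and 0.04 log2 units from its group mean. Applying the rule without EC12 replicate 1 gave 124 genes, of which 109 were among the 112.

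The rule was also applied with the libraries of 1 replicate number left out in all 4 groups, and the values were then read in the libraries left out. This was chosen after the values had been seen, and the labels do not say whether equal replicate numbers pair libraries. Chosen without the libraries numbered 1, 120 genes had a median EB24 minus EC24 of -0.76 in the libraries that chose them. In those numbered 1 it was -0.74, with EB24 below EC24 in 119 of 120 genes, against a median of 0.09 and 41.1% below 0 over all BXY genes in the FPKM range. Chosen without the libraries numbered 2, 108 genes had medians of -0.78 in the choosing libraries and -0.68 in those left out, where 105 lay below 0 (33.5% of genes in the range). Chosen without the libraries numbered 3, 112 genes had medians of -0.85 and -0.84, and 111 lay below 0 (33.4% of genes in the range). The smaller gain with EB was seen in the libraries left out in 105 of 120, 100 of 108 and 101 of 112 genes. All 3 conditions on the means were met again there by 56, 43 and 54 genes, and 78, 74 and 85 of the genes chosen in this way were among the 112. No share of all genes in the range is given for the smaller gain or for the 3 conditions. Nothing about the 112 members is read from any of the values in the libraries left out. These libraries belong to the same 4 groups, and the spread between replicates may be technical.

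Genes just beyond each threshold had values close to those just within it. For the difference at 24 h, the members nearest to the threshold were BXY_0626700 (-0.609) and BXY_1646000 (-0.612), and the nearest genes outside were BXY_0702800 (-0.598) and BXY_0208400 (-0.593). In all, 664 genes met every condition but this one, with a median EB24 minus EC24 of -0.05 and median gains of 1.26 with EB and 1.29 with adjuvant. For the control gain, BXY_0075200 (1.002) and BXY_1768100 (1.004) lay just inside, and BXY_1378700 (0.9998) and BXY_0076900 (0.994) just outside; 11 genes failed on it alone. For the gain with EB, BXY_1055000 (0.509) and BXY_0035000 (0.5104) lay inside, and BXY_0149900 (0.496) and BXY_0211500 (0.495) outside; 76 genes failed on it alone. For the spread at 12 h, BXY_0005900 (0.595) and BXY_1236400 (0.592) lay inside, and BXY_1174000 (0.625) and BXY_1560000 (0.646) outside; 65 genes failed on it alone. For the mean level, BXY_0687500 (5.08 FPKM) and BXY_0626700 (5.43) lay inside, and BXY_0139000 (4.50) and BXY_1121200 (4.30) outside; 30 genes failed on it alone.

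The ID numbers were not used by the rule. They rise in steps of 100 without gaps through the table. Whether neighbouring numbers are neighbours in the genome is not given in the sources used here. Of the 112 members, 10 had a member as the next or previous ID, in 5 pairs, and 14 had another member within 3 IDs. The closest group spanned 6 IDs and held 4 members, BXY_0228000, BXY_0228200, BXY_0228400 and BXY_0228500. It was singled out after its values were seen.

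BXY_0228000 stood at 148, 158 and 163 FPKM in EB24 and at 299, 285 and 275 FPKM in EC24, with 73.3, 115 and 95.7 FPKM in EB12 and 110, 135 and 135 FPKM in EC12. BXY_0228500 stood at 202, 219 and 191 FPKM in EB24 and at 388, 332 and 352 FPKM in EC24, with 101, 117 and 86.0 FPKM in EB12 and 118, 66.1 and 97.3 FPKM in EC12. In both genes the EB24 libraries were clear of EC24 and of EB12.

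BXY_0228400 stood at 52.2, 53.4 and 54.6 FPKM in EB24 and at 139, 129 and 129 FPKM in EC24, with 20.2, 44.3 and 53.2 FPKM in EB12 and 38.4, 43.8 and 50.1 FPKM in EC12. BXY_0228200 stood at 26.9, 26.7 and 24.5 FPKM in EB24 and at 43.8, 46.7 and 47.8 FPKM in EC24, with 30.3, 12.6 and 14.8 FPKM in EB12 and 18.1, 11.2 and 13.7 FPKM in EC12. In these 2 genes EB24 stood clear of EC24 but overlapped EB12, through EB12 replicate 3 in BXY_0228400 and EB12 replicate 1 in BXY_0228200.

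The IDs in between did not follow the members. BXY_0228300 was higher with EB at 24 h, with 20.2, 20.1 and 18.2 FPKM in EB24 and 9.74, 10.2 and 9.26 FPKM in EC24. BXY_0228100 had means of 5.95 FPKM in EB24 and 5.65 in EC24. The next ID, BXY_0228600, had the members' order at 24 h, with 222, 244 and 225 FPKM in EB24 and 374, 373 and 361 FPKM in EC24, but its gain with EB was 0.35 log2 units and under the threshold. Reads shared between near-identical copies cannot be told apart in this table, and whether these IDs are copies of one another was not tested.

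**Figure D5:**
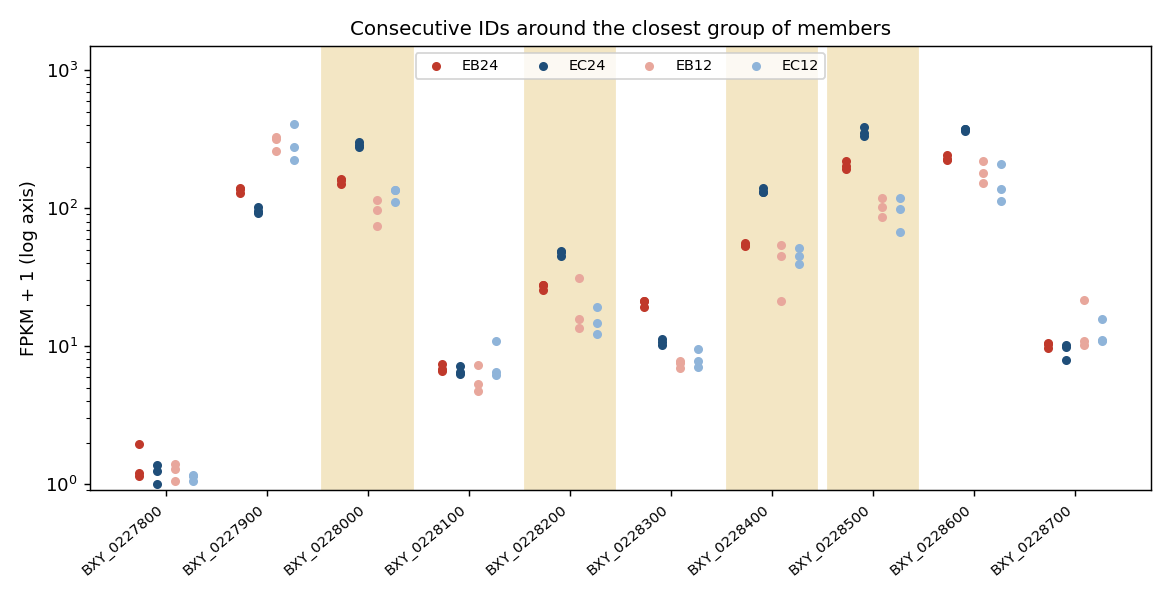
FPKM + 1 on a log axis for the 10 consecutive IDs from BXY_0227800 to BXY_0228700, with the 3 libraries of EB24, EC24, EB12 and EC12 from left to right within each ID. Shaded IDs are members; in these, and in BXY_0228600, the EC24 points lie above all other points, while BXY_0228300 and BXY_0227900 are higher in EB24 than in EC24.

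The other pairs of consecutive members were BXY_0104600 and BXY_0104700, BXY_0687500 and BXY_0687600, BXY_1110600 and BXY_1110700, and BXY_1264800 and BXY_1264900. BXY_0104600 stood at 4.94, 5.16 and 4.43 FPKM in EB24 and at 11.7, 12.3 and 11.9 FPKM in EC24, with 2.64, 3.95 and 2.35 FPKM in EB12 and 2.31, 2.81 and 3.23 FPKM in EC12. BXY_0104700 stood at 15.9, 16.4 and 16.4 FPKM in EB24 and at 37.1, 34.8 and 34.4 FPKM in EC24, with 14.2, 14.96 and 5.85 FPKM in EB12 and 11.9, 11.8 and 17.4 FPKM in EC12. In both, every EB24 library lay below every EC24 library and above every EB12 library, and they kept 32.1% and 40.7% of the adjuvant gain.

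Like BXY_0687600, its neighbour BXY_0687500 was lower with EB at both times without overlap, with means of 4.46 ± 0.774 FPKM in EB24 and 9.52 ± 1.71 in EC24, and of 2.34 ± 0.801 in EB12 and 3.98 ± 0.563 in EC12 (SD, n = 3). Of 126 BXY genes in the FPKM range that sit next to a member and are no members, 7.14% had an EB24 minus EC24 of -0.6 or lower, against 6.44% of all 10221 genes in the range that are no members. A gain of at least 1 with adjuvant was found for 12.7% of the neighbours and 10.5% of the 10221. All members were left out of both sets, also the 10 that sit next to another member. These shares therefore cannot show whether the members' pattern was more common beside a member.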

How the data were processed

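RNA of 12 libraries was analysed from FPKM values that the authors deposited in 1 table, whose 12 value columns each matched 1 library title. TopHat2 2.1.1 was used, per the submitters' processing notes. The genome build was not given in the sources used here, nor were the annotation, counter, strand handling or filters. The rule was applied to the deposited values as log2(FPKM + 1). For calls, limma 3.58.1 in R 4.3.3 was fitted on the same scale to the 13768 IDs that reached 1 FPKM in 3 or more libraries, with 1 mean per group, trended moderated variances and two-sided tests, Benjamini-Hochberg adjusted over all of them at 0.05. The fit was tested on simulated data. No count model was used. Fold changes on this scale understate low genes.

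The members and the rules for naming them were chosen with earlier results of these data known. Named are the members with the lowest 24 h difference (8), largest control gain (6), highest mean (6), lowest and highest share of the gain (4 each), largest 12 h difference (4), those at each threshold (2), and consecutive IDs; BXY_0228000, BXY_0276500 and BXY_1264800 were named after their values were seen. Gene lists by function were planned, but 0 were filled, since the IDs carry no descriptions.

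The replicate number was no term of the model, since the labels do not say what it marks. Deviations of equally numbered libraries correlated at -0.052 to 0.34 over the 4 pairs of groups compared. Alternatives are listed with their effects in the closing section.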

Additional observations from a re-analysis of the deposited data

Results flagged for a closer look

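The agent difference at 24 h minus that at 12 h passed the interaction test (limma over all 12 libraries, adjusted p under 0.05) with a negative sign in 27 of the 112 members, against 1.86% of the 13768 genes. This quantity equals the gain with EB minus the gain with adjuvant, both of which the rule used, so the count is no separate evidence. The count was 9 to 10 when any 1 EB24 library was left out, 10 to 16 when any 1 EC24 library was, and 51 without EC12 replicate 1. The share of all genes called is not given for these reduced fits. Among the named members called, the difference was -2.54 log2 units for BXY_0728300, -2.20 for BXY_0038300, -2.19 for BXY_1165700 and -2.08 for BXY_0590900. It was -1.85 for BXY_1264900, -1.57 for BXY_0833400, -1.52 for BXY_1055000 and -1.48 for BXY_0390100. It was -1.25 for BXY_0276500, -1.21 for BXY_0104600, -1.07 for BXY_1110700, -0.95 for BXY_0228500 and -0.87 for BXY_1410900. No formal test for an outlying library was run, since each group holds 3.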

How the results depend on the processing

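The rule gave 104 to 116 genes with pseudocounts of 0.1 and 0.5, median ratio scaling or quantile normalization, of which 100, 106, 80 and 73 were among the 112. Without any 1 library it gave 100 to 124, of which 91 to 109 were. Without 1 library the members called numbered 48 to 98 for EB24 below EC24, 112 for EC24 above EC12, 83 to 102 for EB24 above EB12, 9 to 51 for the interaction and 0 to 9 at 12 h, and their median EB24 minus EC24 was -0.83 to -0.76. Quantile normalization gave 41 calls in the interaction, against 27, and 1 at 12 h, against 0; the cause was not tested. The other counts stayed within 1.5 times under all alternatives of scale, filter, trend and groups fitted. The share of all genes called is not given for the fits without 1 library or for those with another scale, filter or trend. Nothing about the members is read from those counts.

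With the replicate number as a block, 83, 112, 97, 23 and 0 members were called in the 24 h, control gain, EB gain, interaction and 12 h comparisons, against 82, 112, 97, 27 and 0 without the block. For the fit with the block the share of all genes called is not given, so nothing about the members is read from its counts. The labels do not say whether equal numbers pair libraries. Deviations in EB12 and EC12 correlated at 0.34, 0.15 and -0.052 for replicates 1, 2 and 3. Unequally numbered libraries were not compared, so the correlations cannot decide it.

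EB24 minus EC24 of the 39 members named in the text kept its sign under every alternative run, which was largely fixed beforehand. The rule required a lower EB24 mean, and every EB24 library lay below every EC24 library in all 112 members. Leaving out 1 library or changing the pseudocount, filter, block, trend or groups fitted therefore could not turn the sign. Median ratio scaling and quantile normalization could have turned it and did not. The interaction, in genes that did not pass it, turned to -0.053 for BXY_0687600 after median ratio scaling and to -0.11 after quantile normalization, and to 0.066 for BXY_1768100 after quantile normalization. Without 1 library it ran from -0.19 to 0.25 for BXY_0687600, -0.31 to 0.27 for BXY_0771600, -0.33 to 0.069 for BXY_1281800 and -0.39 to 0.062 for BXY_0104200. The cause was not tested. Depth is known only roughly, so the counting error of low members such as BXY_0590900 at 12 h cannot be given.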
